A study of Rattus norvegicus with 16 samples.

Results

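Hearts of 8 newborn rats of the NHR strain (Normal Heart Rat, the normal-sized counterpart of a strain with inherited cardiac enlargement) were profiled for microRNAs, and the miRNAs were ranked by their signal within these hearts. The 8 arrays are the NHR arrays of a series of 16, and the other 8, from the enlarged-heart strain HHR, were used only in an alternative fit of the sex comparison. The pups were untreated, 2 days old, 4 female and 4 male, with 1 array per animal, no pooling and 100 ng of total RNA each. The labels do not settle the tissue, since a protocol speaks of hearts taken whole and the design text of ventricles cut free of the atria. The hearts were on 2 slides, each with 2 NHR females and 2 NHR males.

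A miRNA is a short RNA cut from a hairpin precursor. Its seed, bases 2 to 8, does most of the pairing with target messenger RNAs, so miRNAs with the same seed are grouped as a family. Usually 1 arm of the hairpin is kept as the main product, and the other, named with a star in older nomenclature, is mostly degraded. In heart muscle, miR-1 and miR-133a are made together from shared precursor transcripts and act in muscle differentiation and growth. By contrast, miR-208a, miR-208b and miR-499 lie in introns of myosin heavy chain genes and follow the expression of those genes.

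Mature sequences of bright miRNAs and of their family members are shown first, from RefSeq (build GRCr8), 5′ to 3′, with the seed in capitals. Among them, miR-133a (rank 43) and miR-98 (rank 67) do not lead the ranking. The first 3 are the muscle miRNAs, and the next 8 are the let-7 family, whose members share a seed and differ at few other bases. The last 5 are the brightest members of other families.
miR-133b: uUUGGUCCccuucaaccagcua
miR-133a: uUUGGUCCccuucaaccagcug
miR-1: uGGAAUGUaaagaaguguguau
let-7a: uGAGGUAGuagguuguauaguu
let-7f: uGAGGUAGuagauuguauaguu
let-7d: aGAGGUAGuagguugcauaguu
let-7c: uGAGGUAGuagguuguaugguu
let-7i: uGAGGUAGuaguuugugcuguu
let-7b: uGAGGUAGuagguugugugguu
let-7e: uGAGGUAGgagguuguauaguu
miR-98: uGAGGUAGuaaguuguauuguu
miR-21: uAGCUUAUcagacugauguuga
miR-130a: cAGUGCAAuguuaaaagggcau
miR-16: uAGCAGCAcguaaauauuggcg
miR-143: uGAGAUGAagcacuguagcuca
miR-126: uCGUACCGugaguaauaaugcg

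Of 677 rat miRNAs on the array, 192 (28.4%) were detected on all 8 arrays by the scanner software's flag, 425 (62.8%) on none and 60 on some. Each array detected between 200 and 239. Levels are background-subtracted signals, averaged over a miRNA's spots and probes and scaled so that the arrays share the same 75th percentile over bright probes. They are in arbitrary signal units. Signals of different miRNAs rest on different probes, which differ in labelling and binding, so the order below is an order of signal and not of molecule number. Before scaling, that percentile ran from 271 to 459, with 3 arrays (NHR female 3, male 2 and male 4) at 407 or above and the other 5 at 314 or below. Log2 levels of the 192 correlated between hearts at Pearson's r of 0.990 to 0.999 over the 28 pairs of arrays, across miRNAs, which are not independent replicates. Their mean log2 levels spanned 11.78 (9.97 with the brightest probe of each miRNA, and 5.87 in the authors' deposited table), and they held 99.5% ± 0.35 (SD, n = 8) of the summed signal of all miRNAs detected on an array. The analysis below ranks these 192.

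**Figure D1:**
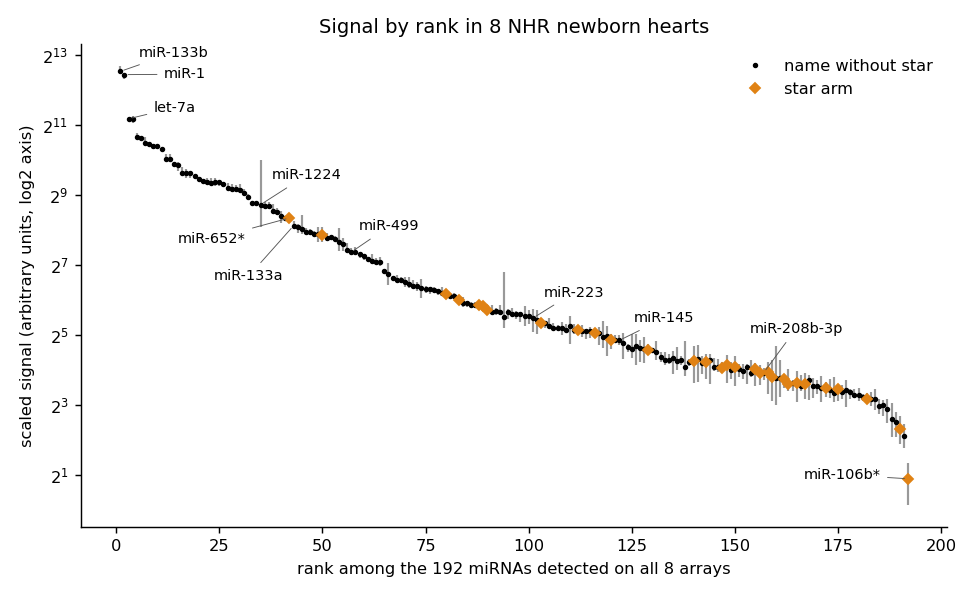
Scaled signal (log2 axis) against rank for the 192 miRNAs detected on all 8 NHR arrays. Points are medians of 8 hearts, grey bars run from the lowest to the highest heart, and diamonds are star arms. miR-133b and miR-1 stand above a smooth decline, miR-1224 has a wide bar among the bright miRNAs, and miR-106b* is the dimmest.

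The muscle miRNA miR-133b was the brightest miRNA in every heart, and miR-1, which restrains growth and cell division genes in heart muscle, came next in every heart. The signal of miR-133b was 5863 in the lowest heart, 5914 at the median and 6587 in the highest. That of miR-1 was 5049, 5544 and 5775. miR-133b thus held 11.2% ± 0.35 (SD, n = 8) of the summed signal and miR-1 10.2% ± 0.50, and the next miRNA, let-7a, held 4.27% ± 0.10. The step from miR-1 down to let-7a was 1.25 ± 0.051 on the log2 scale and was the widest between neighbours among the 30 brightest.

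miR-133a, which differs from miR-133b only at its last base (A22G, counted from the 5′ end, miR-133b's base first), was much dimmer. Its signal was 265, 278 and 304 (lowest, median and highest heart), and it ranked 43 with 0.518% ± 0.017 of the signal. The ratio of miR-133b to miR-133a was 21.6 (geometric mean) and lay between 21.1 and 22.3 in all 8 hearts. The mature miR-133a lies at chr18:2157886-2157907 on the minus strand of GRCr8, beside miR-1 at chr18:2160339-2160360. The locus of miR-133b is chr9:30594629-30594650 on the plus strand. Its neighbour there is miR-206 (chr9:30590747-30590768, same strand), which was detected on only 2 arrays. How far probes for RNAs that differ by 1 base read each other's target was not tested.

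The other muscle markers were far lower. miR-499 ranked 57, with a signal of 156, 165 and 178 and a share of 0.308% ± 0.012. miR-208b-3p, the miRNA of the slow myosin gene that predominates before birth, was detected in all 8 hearts at rank 157 (13.0, 15.1 and 16.6). The array's miR-208 (RefSeq miR-208a-3p, of the fast myosin gene that predominates in the adult rodent heart) was detected on none, although miR-208* from the same hairpin was detected on all 8 at 15.1, 16.4 and 18.8. The skeletal muscle miRNA miR-206, which shares the seed of miR-1 and differs from it by A11G, A21G and U22G (miR-1's base first), was detected on 2 arrays at 8.89 and 9.43. Together, the 5 heart muscle miRNAs detected on all 8 held 22.2% ± 0.67 of the signal, from 20.7% to 22.9%.

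**Figure D2:**
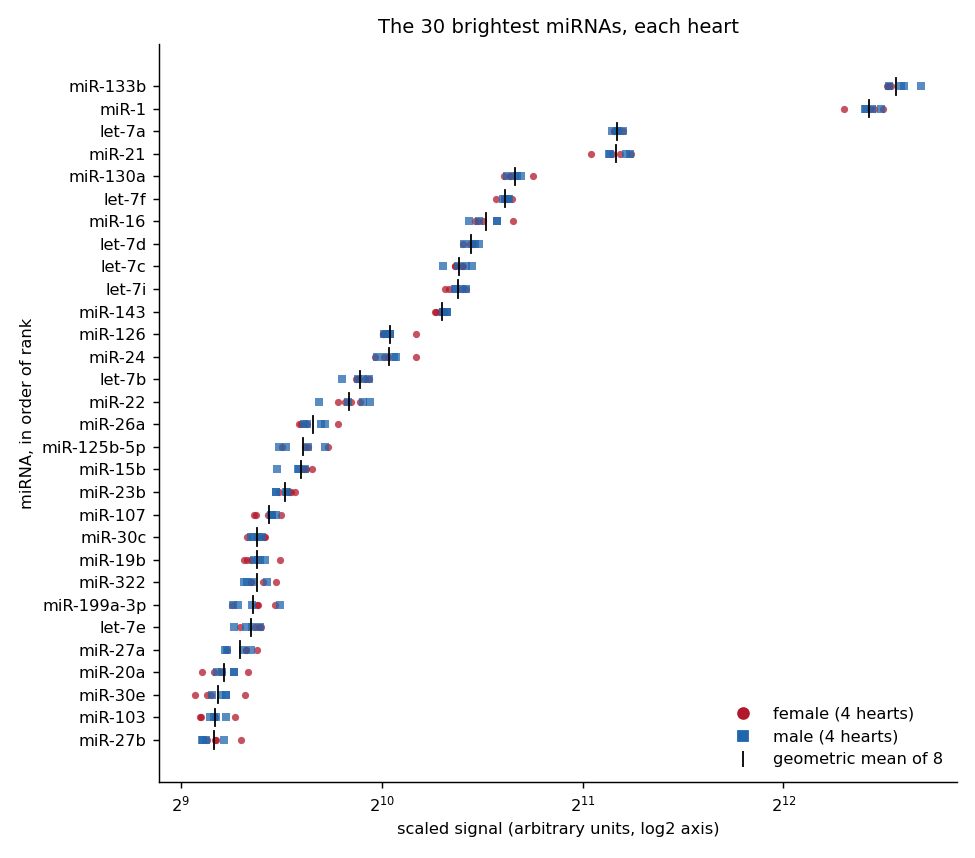
Scaled signal (log2 axis) of the 30 brightest miRNAs in each heart, 4 females as circles and 4 males as squares, with the geometric mean of the 8 as a bar. The points of miR-133b and miR-1 lie far to the right of all others, and from miR-30c to miR-27a the neighbours overlap.

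The signal was concentrated in few miRNAs. The 3 brightest held 25.7% ± 0.66 (SD, n = 8), the 10 brightest 46.0% ± 0.67, the 30 brightest 74.4% ± 0.44 and the 100 brightest 96.3% ± 0.18. It took 12 miRNAs to reach 50% of the signal in 7 hearts and 13 in NHR female 3, and 58 to 61 to reach 90%. The number for 50% averaged 18.9 after a normexp background with an offset of 50, and 23.4 in the authors' deposited table. After miR-133b and miR-1, the 10 brightest were let-7a, miR-21, miR-130a, let-7f, miR-16, let-7d, let-7c and let-7i. miR-21, a miRNA known for its rise in cardiac fibroblasts under stress, stood level with let-7a, at 2110, 2299 and 2420 against 2266, 2311 and 2356. miR-130a, of a family enriched in vessels, was at 1559, 1611 and 1728, and miR-16, which slows the cell cycle, at 1384, 1442 and 1609. Smooth-muscle-associated miR-143 ranked 11 (1231, 1266 and 1285) and endothelial miR-126 ranked 12 (1029, 1036 and 1152). Ranks 13 to 30 went to miR-24, let-7b, miR-22, miR-26a, miR-125b-5p, miR-15b, miR-23b, miR-107, miR-30c, miR-19b, miR-322, miR-199a-3p, let-7e, miR-27a, miR-20a, miR-30e, miR-103 and miR-27b, each with between 1.06% and 1.95% of the signal. With the total gene signal that the scanner software reports, the shares were nearly the same, 11.2% for miR-133b and 10.2% for miR-1.

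Many neighbours in this order were not told apart by these 8 hearts. Of the 29 neighbouring pairs among the 30 brightest, 10 held their order in 8 of 8 hearts. In 13 the mean paired difference was called different from 0 (exact two-sided sign-flip permutation test, Benjamini-Hochberg over the 29 pairs, adjusted p = 0.0349 or less). The test does not compare a difference with the size of the spread between hearts. The same hearts set the ranking, and each pair compares different probes, so the test speaks to the repeatability of these signals and not to the order of the miRNAs. With the brightest probe alone 12 of the 29 pairs turned, with the mean of log2 probe values 11, and 9 did in the authors' deposited table. miR-133b exceeded miR-1 in 8 of 8 hearts by 0.13 ± 0.076 on the log2 scale, a gap far smaller than that between the probes of either miRNA. The difference between let-7a and miR-21 was not called (0.0058 ± 0.081, let-7a higher in 4 of 8 hearts, exact permutation adjusted p = 0.941). Nor was that between miR-126 and miR-24 (0.00063 ± 0.031, 4 of 8, exact permutation adjusted p = 0.971). From miR-30c to miR-27a, 6 miRNAs formed a run in which no neighbouring pair was called.

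Grouped by seed, the let-7 family and not miR-133 carried the most signal. Of the 192, 159 matched a RefSeq mature sequence, 37 by exact name and 122 through the current name of the same arm, and they fell into 120 seeds. The 8 let-7 members, which keep cells differentiated by holding down growth genes, together held 17.8% ± 0.36 (SD, n = 8) of the signal, from 17.3% to 18.4%. let-7a made up 23.9% of the family's signal, so the family total was spread over its members. How far the probes of let-7 members read each other's targets was not tested, so the total may count some RNA more than once. The miR-133 pair held 11.7% ± 0.36, of which miR-133b made up 95.6%. miR-1, the only one of the 159 with its seed, followed with 10.2%. The family of miR-16, miR-15b, miR-322, miR-497 and miR-195 held 5.58% ± 0.15, and miR-21 alone 4.25% ± 0.17. The seed of miR-130a, miR-130b and miR-301b held 3.46% ± 0.069, and that of miR-30c, miR-30e and miR-30a 3.30% ± 0.11. The 10 brightest seeds held 63.7% ± 0.65. The 33 unmatched miRNAs are in no seed. They include miR-301a (0.906%), miR-30d (0.493%) and miR-30b-5p (0.457%), which bear the names of these last 2 families, so the order of those families against miR-21 is not settled.

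Inside the let-7 family the ratios between members varied little from heart to heart. let-7a exceeded let-7f, which differs by G12A (let-7a's base first), 1.47-fold, and at least 1.45-fold in each of the 8 hearts. It exceeded let-7c (A19G) 1.72-fold and let-7e (U9G) 3.54-fold. The difference between let-7c and let-7i was not called (0.0089 ± 0.046 on the log2 scale, let-7c higher in 5 of 8 hearts, exact permutation adjusted p = 0.680). miR-98, which differs by G11A and A19U, was 23.3-fold below let-7a. Other pairs that differ by 1 base were closer than miR-133b and miR-133a. miR-107 exceeded miR-103 (C22G) 1.21-fold, miR-23b exceeded miR-23a (A19U) 1.68-fold, and miR-27a exceeded miR-27b (C19U) 1.09-fold.

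Where a miRNA had several probes, their signals often lay far apart, which limits how closely ranks can be read. Among 190 of the 192 with more than 1 probe, 89 had a brightest and a dimmest probe at least 3-fold apart. The brighter probe of miR-133b averaged 10669 and the dimmer 1430, and those of miR-1 averaged 9423 and 1605. Under the brightest probe alone, miR-133b and miR-1 kept ranks 1 and 2, and 29 of the 30 brightest were shared.

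Star arms were seldom detected and mostly dim. Of 240 names with a star, 30 (12.5%) were detected on all 8 arrays, against 131 of 320 (40.9%) names with no arm label. Star arms held 2.46% ± 0.11 (SD, n = 8) of the signal. Of 205 hairpins with both arms on the array, the main arm was detected on all 8 arrays in 101, and in 71 of these the star arm was detected on none. Neither arm was detected anywhere in 75. In 16 hairpins both arms were detected in every heart, and the median main to star ratio was 8.77-fold.

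**Figure D3:**
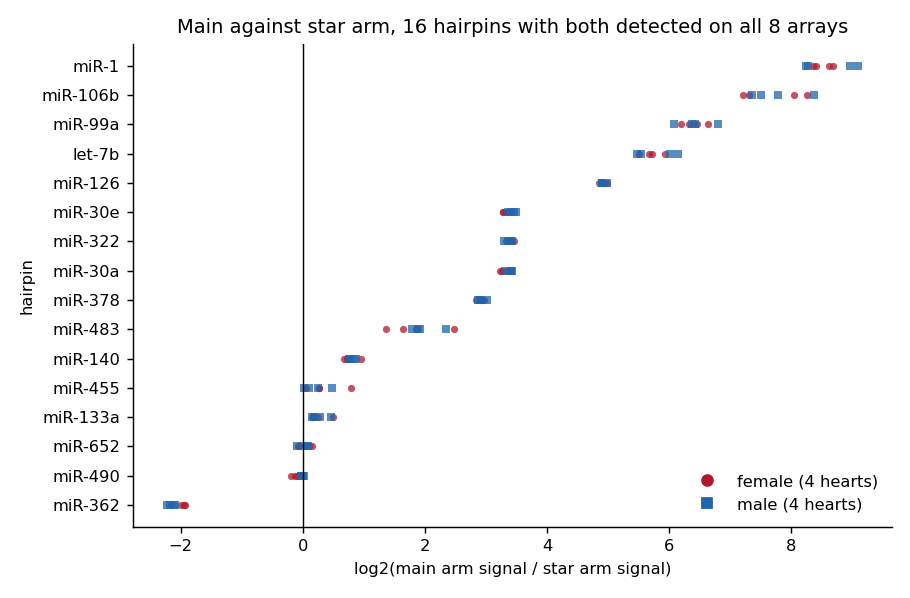
log2 ratio of main to star arm signal in each heart for the 16 hairpins with both arms detected on all 8 arrays; circles are females and squares males. miR-362 lies left of 0 in every heart, miR-490 and miR-652 straddle 0, and miR-1 and miR-106b lie farthest right.

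In miR-362 alone the star arm was brighter in 8 of 8 hearts, with main minus star at -2.08 ± 0.11 on the log2 scale (n = 8). The dimmer of the main arm's probes averaged -0.21 after background subtraction, and on the brightest probes the star arm was 2.22-fold higher, also in 8 of 8 hearts. The signal of miR-362* was 37.3, 40.3 and 44.7, against 8.64, 9.80 and 11.2 for miR-362. The arms of miR-490, a hairpin within a muscarinic receptor gene, could not be ordered, since the star arm was higher in 6 of 8 hearts by -0.061 ± 0.072, nor could those of miR-652 (0.023 ± 0.090, main arm higher in 5 of 8). miR-652* was the brightest star arm of all, at rank 42 with 292, 324 and 353 against 317, 326 and 336 for miR-652. miR-133a* came next at rank 50 (200, 232 and 273), only 1.21-fold below miR-133a in geometric mean and below it in 8 of 8 hearts. The arms of miR-455 (1.21-fold), miR-140 (1.73-fold) and miR-483 (3.76-fold) were also close, with the main arm higher in every heart. On the brightest probes alone, miR-490* exceeded miR-490 in 8 of 8 hearts, miR-455* exceeded miR-455 in 7 of 8, and miR-652 exceeded miR-652* in 8 of 8, so the order of these arms depends on the probe. Mature sequences are shown for miR-652* and miR-133a*, the brightest star arms, and for miR-140* and miR-362*. The main arms of miR-652 and miR-140 are added to show that the arms of each carry different seeds.
miR-652: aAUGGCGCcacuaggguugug
miR-652*: aCAACCCUaggagggggugccau
miR-133a*: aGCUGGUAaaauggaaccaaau
miR-140: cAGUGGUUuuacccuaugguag
miR-140*: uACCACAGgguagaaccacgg
miR-362*: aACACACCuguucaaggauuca

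At the other end, the main arm of miR-1 exceeded miR-1* 381-fold, that of let-7b 53.8-fold and that of miR-126 30.3-fold. On the brightest probes these ratios were 613, 73.4 and 48.5. miR-106b and miR-99a also belong to the 5 hairpins with the largest ratios, but 1 probe of miR-106b* averaged -3.13 and 1 of miR-99a* averaged 0.041. On the brightest probes their main arms were 43.2-fold and 48.3-fold higher. The star arms in these ratios lay between 1.10 and 37.8, so the ratios rest on weak signals. The remaining star arms among the 10 brightest were miR-490*, miR-322*, miR-378*, miR-30e*, miR-30a*, miR-362*, miR-126* and miR-140*, at ranks 80 to 116. In 9 hairpins the star arm was detected in every heart while the main arm was not. In 6 of these, miR-202, miR-208, miR-211, miR-296, miR-421 and miR-675, the main arm was detected on no array. The brightest probe of miR-675* averaged 45.8 and its dimmest -1.06. miR-191*, miR-211* and miR-582* are in the set of 26 described below, whose spread between hearts increased with scaling. The array also named both arms of 54 hairpins as 5p and 3p, and 6 of these had both in every heart. Among them the 3p arm was brighter in 8 of 8 hearts for miR-199a (3.47-fold) and miR-324 (2.08-fold), and the 5p arm for miR-125a (19.6-fold), miR-30b (26.8-fold), miR-532 (3.91-fold) and miR-542 (1.23-fold).

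The heart muscle markers miR-133b and miR-1 led, as given above, and the detected markers of other cell types had lower signal than either. The rest of the heart muscle list did not lead. miR-143 (rank 11), miR-126 (12), miR-199a-3p (24) and miR-214 (40) ranked above miR-133a (43), miR-499 (57) and miR-208b-3p (157), and miR-208 was not detected. Fewer cells of a type and less RNA per cell cannot be told apart in these bulk samples. All 3 fibroblast-associated miRNAs were detected in every heart, with a summed share of 2.18% ± 0.13 (SD, n = 8), led by miR-199a-3p at rank 24. In the endothelial list miR-126 and miR-126* were detected on all 8, miR-221 on 2 and miR-222 on none, and the summed share was 2.01% ± 0.061. The smooth muscle list held 2.39% ± 0.053, nearly all of it miR-143. Its partner miR-145, encoded about a kilobase away on the same strand, ranked 122 at 26.3, 28.7 and 31.8, 43.9-fold below miR-143. Red-cell miR-451 ranked 54 and ran from 168 to 264, and with miR-144 it held 0.437% ± 0.069, from 0.364% to 0.572%. The highest and the lowest heart for that list were both male. miR-486, miR-155 and the name miR-208b, also in the lists, were not analysed here.

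Leukocyte miRNAs held 0.214% ± 0.017, with miR-223, miR-142-3p and miR-150 detected in every heart and miR-142-5p in none. Of 7 epithelial markers (miR-200a, miR-200b, miR-200c, miR-141, miR-429, miR-205 and miR-203), none was detected on any array. Neither were neuronal miR-124, miR-9 and miR-137, liver miR-122, and the pancreatic and endocrine miR-375, miR-216a and miR-217. miR-128, from the neuronal list, was detected in every heart at rank 92 (47.3, 51.5 and 54.1), and miR-192, from the liver and kidney list, at rank 176 (8.94, 10.2 and 11.8). miR-194 was detected on 1 array.

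**Figure D4:**
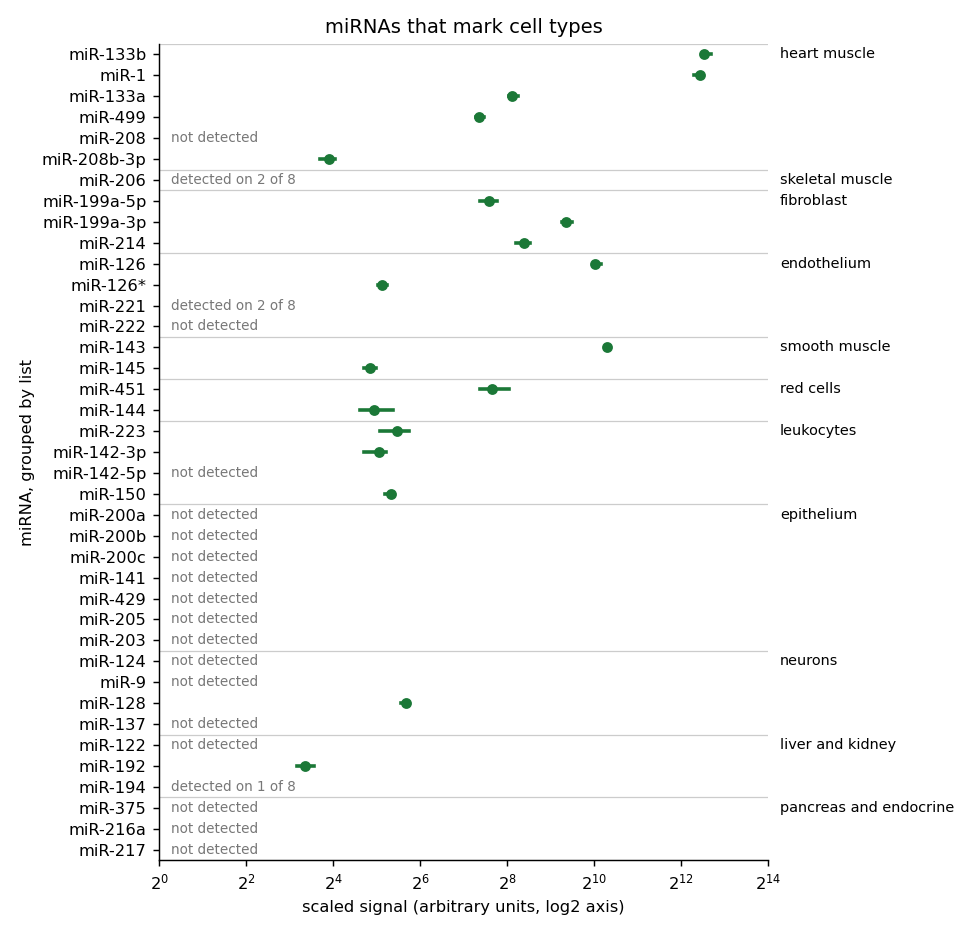
Scaled signal (log2 axis) of the miRNAs in each cell type list, with the median of 8 hearts as a point and the range as a line. miRNAs not detected on all 8 arrays carry words in place of a value. Heart muscle miR-133b and miR-1 lie at the far right, and all 7 epithelial miRNAs were not detected.

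Hearts differed little once scaled. The median SD between hearts over the 192 was 0.092 on the log2 scale, and 105 had an SD of at most 0.1. It was 0.059 for ranks 1 to 50, 0.070 for ranks 51 to 100, 0.13 for ranks 101 to 150 and 0.18 below that. The steadiest were let-7a (0.020), miR-143 (0.023), let-7f (0.024), let-7d (0.027) and miR-98 (0.031), of which 4 are let-7 family members. Before scaling the median SD was 0.31.

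The 10 most variable were miR-1224 (0.59), miR-466b (0.58), miR-494 (0.50), miR-106b* (0.47), miR-672 (0.42), miR-211* (0.39), miR-202* (0.37), miR-188 (0.35), miR-409-3p (0.35) and miR-374 (0.34). Apart from miR-1224 and miR-494, these ranked between 126 and 192. The signal of miR-1224 was 272, 422 and 1030 (lowest, median and highest), which moved its rank between 14 and 42. NHR male 3 held the highest value, and the next heart was at 477. miR-494 had the same high heart, at 110 in NHR male 3 and at most 57.6 in the other 7. NHR male 3 also had the lowest percentile before scaling, 271, and its part in these values was not tested.

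In 26 of the 192, scaling increased the spread between hearts instead of reducing it. These 26 were singled out after their values were seen, and they are described here without a test. As that choice fixes, their spread was smaller before scaling (median SD 0.15) than after it (0.29), against 0.32 and 0.085 for the other 166. miR-2985, at 33.2, 34.7 and 37.5 before scaling, was the steadiest on the raw scale (SD 0.067). For the leukocyte marker miR-223 the raw signal was 38.6, 41.0 and 48.6 (SD 0.10) and the scaled SD 0.25. The set, 26 of the 192, held 12 of the 17 miRNAs with an SD above 0.3 after scaling, which the choice by scaled SD also favours. It held 1.89% ± 0.58 (SD, n = 8) of the signal, and its ranks ran from 35 (miR-1224) to 177 (miR-664).

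**Figure D5:**
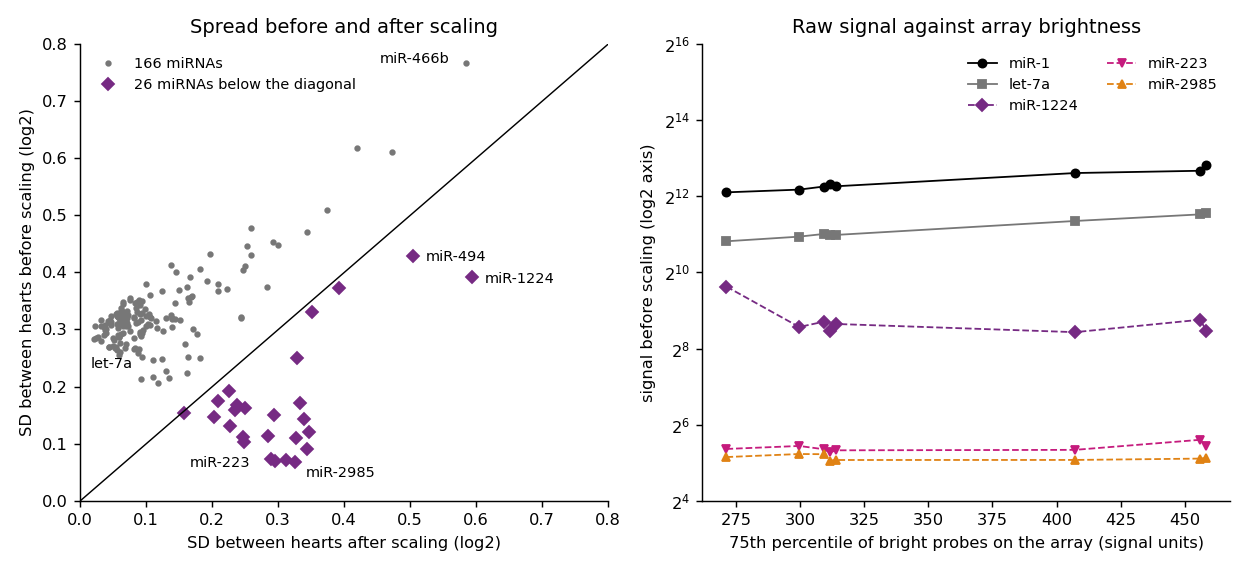
Left, SD between hearts of log2 signal before scaling against after scaling for the 192 miRNAs, with the line of equality; the 26 below it are diamonds. Right, raw signal (log2 axis) of 5 miRNAs on the 8 arrays against the 75th percentile of bright probes: miR-1 and let-7a rise with it, miR-223 and miR-2985 stay nearly level, and miR-1224 is highest on the dimmest array.

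These 26 also shared features that the choice did not use. Of the 17 with a RefSeq sequence, 15 (88.2%) held a run of at least 3 cytosines (the motif CCC on the strand of the miRNA), against 29 of 142 (20.4%) of the others and 132 of 693 (19.0%) rat mature names in RefSeq. The sequence ended in CC in 8 of the 17 (47.1%) and in 7 of the 142 (4.93%). Their probes gave nearly equal signals, with a median ratio of brightest to dimmest of 1.14, against 3.04 in the others. In 16 of the 26 the probes lay within 0.3 on the log2 scale, against 8 of 164. Examples follow with the cytosine runs in capitals, and the last 2, miR-1224 and miR-494, are the 2 of the 17 without such a run. The other 9 members have no sequence here. What the runs or the probes have to do with the steady raw signal was not tested.
miR-2985: uguuauaguauCCCaccuaCCC
miR-223: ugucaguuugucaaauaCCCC
miR-3544: aacuccugcaugacgccguuCCC
let-7b*: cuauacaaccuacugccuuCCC
miR-1*: gcacauacuucuuuauguaCCC
miR-582*: aaccuguugaacaacugaaCCC
miR-702-3p: ugCCCaCCCuuuaCCCCacucca
miR-3573-3p: uuccuaacucugCCCCCuCCCau
miR-1224: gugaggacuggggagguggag
miR-494: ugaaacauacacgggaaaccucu

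The set includes let-7b* and miR-1*, the dim arms of 2 of the most lopsided hairpins above. It also includes miR-455* and miR-483, which belong to hairpins with close arms. Of the 30 brightest miRNAs, all with a sequence, 22 (73.3%) began with U, 2 (6.67%) held CCC, and none is in the set of 26. Of all 159 with a sequence, 82 (51.6%) began with U and 44 (27.7%) held CCC.

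At the lower edge, the dimmest miRNAs detected in every heart were miR-374, miR-674-3p, miR-99a*, miR-350 and miR-106b*. On these averaged levels miR-106b* was last in all 8 hearts, at 1.10, 1.85 and 2.50. In each of the miRNAs just named the dimmest probe averaged 0.62 or less after background subtraction, and the brightest 11.2 or more. With the brightest probe of each miRNA, the dimmest was instead miR-664, at 10.8. Of the 60 detected on some arrays, 24 were detected on none but the 3 brighter arrays, and 58 had a median below 16 where detected. The exceptions were miR-331*, detected on 1 array at 24.1, and miR-3584-5p, detected on 6. miR-3584-5p was at 280 in NHR female 3 and 225 in NHR female 4, at 56.2 and 59.4 in NHR males 3 and 4, and at 26.3 and 14.4 in NHR female 2 and male 1. All 4 of the higher values were on slide 2. After these came miR-150*, miR-32* and miR-551b*, with medians between 12.9 and 14.5.

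Females and males were compared as the only labelled condition within the strain. No miRNA of 217 tested (those detected on at least 4 arrays) was called at an adjusted p of 0.05 (limma, Benjamini-Hochberg), which is 0% of those tested, and 4 had an unadjusted p under 0.05. Levels of the 4 females and 4 males did not overlap for 2 of 217 (0.922%). The smallest unadjusted p values belonged to miR-598-3p, lower in females by -0.25 ± 0.066 (SE, log2), miR-379, higher in females by 0.24 ± 0.071, and miR-374, higher by 0.47 ± 0.16. The limma adjusted p was 0.990 for each. The median absolute difference was 0.039. Without NHR male replicate 1, miR-369-5p passed the threshold (0.43 ± 0.044, limma adjusted p = 0.00814), and within slide 2 miR-3584-5p did (2.12 ± 0.14, limma adjusted p = 0.0254).

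Array summaries did not separate the sexes either, with 4 hearts against 4, where the smallest p an exact permutation test allows is 0.0286. The 10 brightest miRNAs held 45.8% ± 0.88 of the signal in females and 46.3% ± 0.28 in males (SD, n = 4 each; exact two-sided permutation, adjusted p = 0.943). On average 218 ± 14.3 miRNAs were detected in females and 216.5 ± 19.2 in males (exact permutation, adjusted p = 0.971).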

How the data were processed

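Per the labels' protocols, total RNA was labelled with Cy3 and hybridised to Agilent rat miRNA arrays. The authors deposited the scanner output; per the file headers its intensity values (processed, median, background and total gene signals) come from Agilent Feature Extraction 10.7.3.1. The detection flags (other values, 0 or 1) are also as deposited. The authors deposited a log2 table too (limma is named in the submitters' processing notes); its column medians were 6.13 to 6.15, it correlated with log2 background-subtracted median signal at r of at least 0.994, its offset and centring are unknown, and it was an alternative only.

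Each array had 13540 spots for 677 miRNAs, 20 per miRNA in 1 to 4 of 1644 probes; none was saturated. Outlier spots were left out, processed signals averaged per probe, arrays scaled to an equal 75th percentile of 270 probes (those flagged well above background on each of the 8), and probes averaged. Shares are of the sum over miRNAs detected on that array. For the sex fit, levels were raised to a floor of 1.27. limma 3.58.1 (R 4.3.3, checked on simulated data) used no block. The simulation gave every miRNA the same SD. Its simulated differences were larger than any between the sexes among miRNAs detected on all 8, so it does not speak to smaller ones. Replicates are separate animals.

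Named miRNAs were the 30 brightest, the 10 brightest star arms, the hairpins with extreme or close arms, the 10 most and 5 least variable, the 3 smallest p by sex, the dimmest, the brightest partly detected, and the marker lists. Members and lists were chosen with earlier results of these data known. Clusters join RefSeq entries within 10 kb. Current arm names were assigned by hand. Alternatives covered signal column, background, probe summary, scaling, filter, floor, slide and replicate blocks, and leaving out each array. The number of arrays limits precision.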

Additional observations from a re-analysis of the deposited data

Results flagged for a closer look

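Among 86 levels and array summaries of the 8 hearts, 7 had 1 heart standing apart from the other 7 by Dixon's gap test at the 95% level. Chance flags about 1 in 20 groups, but that rate does not apply to miRNAs chosen for their spread, such as miR-1224 and miR-494, or to a whole-number count with 7 tied hearts. NHR female 3 was low for miR-1, at 12.30 on the log2 scale with the next heart at 12.41, and high for miR-126, at 10.17 against 10.04. It also had the lowest share for the 10 brightest miRNAs, 44.5% against 46.0% in the next heart, and was the only heart in which 13 miRNAs, and not 12, were needed for 50% of the signal. NHR male 4 was low for miR-15b, at 9.48 against 9.58. NHR male 3 was high for miR-1224, at 10.01 against 8.90, and for miR-494, at 6.78 against 5.85.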

How the results depend on the processing

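miR-133b and miR-1 kept ranks 1 and 2 under all alternatives run. The share of the 10 brightest was 40.7% with median minus background signal, 37.4% with normexp (whose offset lifts dim signals), 48.6% with the brightest probe, 43.3% with the mean of log2 probe values, 32.6% with the authors' table and 46.9% without the 26 miRNAs of steady raw signal, an alternative chosen after seeing the data. In the first 5 of those settings, in that order, the brightest miRNA held 9.90%, 9.04%, 12.5%, 9.31% and 6.84%, and 15.9, 18.9, 11.1, 13.6 and 23.4 miRNAs on average made 50% of the signal; with all miRNAs in the denominator it was 12.5. Leaving out each array gave 45.9% to 46.3%, 11.1% to 11.2% and 12 to 12.1. miR-133a ranked 41 with the brightest probe, 48 with the mean of log2 probe values and with the authors' table, and 42 without the 26.

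The median SD was 0.101 with total gene signal, 0.122 with median minus background, 0.134 with normexp, 0.106 with log2 probe means, 0.131 in the authors' table, 0.088 with quantile scaling, 0.314 unscaled, 0.103 with a percentile over all probes, 0.137 for miRNAs detected on at least 1 array, 0.085 without the 26, and 0.087 to 0.096 leaving out an array. The count detected on all 8 was 159 where most spots of a probe had to be well above background, and 192 to 196 with an array left out. The star arm was brighter in 3 hairpins with the brightest probe and with the sum of probes, and in 2 with each array left out. Neighbour pairs called by the sign-flip test numbered 10 to 12 leaving out an array.

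Sex calls were 0 in 26 of 28 alternatives, with 0 to 15 unadjusted p values under 0.05, and 1 within slide 2 and 1 without NHR male replicate 1 (0 to 1 leaving out an array). With the replicate block it was 0 calls. After the mean of each sex was subtracted, same-numbered hearts correlated over miRNAs at 0.425, -0.067, 0.121 and 0.487. Differently numbered hearts were not compared in this way, so these values do not decide on pairing. The numbers were not taken as pairs because nothing in the labels says that they are. The difference of miR-374 turned to -0.00031 with median minus background signal and -0.0076 with normexp. The female minus male difference in detected miRNAs, 1.5, was -14 within slide 1 and -4 to 9 leaving out an array; that in the percentile before scaling, -11.5, was 44.6 within slide 2 and -47.6 to 21.7; that in the share of the 10 brightest, -0.54, was -0.77 to -0.12. Causes were not tested.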

Other observations

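miRNAs encoded near each other differed in signal. On GRCr8, 37 groups of RefSeq miRNAs within 10 kb on the same strand held at least 2 of the 192 miRNAs. The median ratio of the brightest to the dimmest member of a group was 4.76-fold. Arms of a hairpin count as separate members, and some groups hold only the arms of a single hairpin, such as miR-126 and miR-126*. That ratio therefore mixes differences between arms with differences between hairpins. The cluster of cell-cycle miRNAs at chr15:98587861-98588622 ran from miR-19b down through miR-20a, miR-92a, miR-17-5p and miR-19a to miR-18a, a 7.35-fold range. The group of miR-322 at chrX:137720985-137726219 ran from miR-322 to miR-351 over a 73.8-fold range, with miR-542-5p, miR-503, miR-542-3p, miR-322* and miR-450a between them. That range depends on the probes. The brightest and dimmest probes of miR-351 averaged 32.2 and -1.14, and those of miR-322 901 and 429. Members of the miR-24 group at chr17:1818672-1819425 (miR-24, miR-23b and miR-27b) lay within 1.83-fold, and miR-497 and miR-195 at chr10:55450172-55450529 within 1.26-fold. miR-19b, miR-92a and miR-17-5p of the chr15 cluster have further loci, as do miR-24, let-7a, let-7c, let-7f, miR-30c, miR-29b and miR-181a. Their signal therefore cannot be split between loci.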
